A study of Mus musculus with 15 samples.

Results

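Of the 48795 genes listed in each sample, 10 were examined here, chosen by name as genes that encode chains of receptors for IL-12, IL-18, IL-27, interferon-γ (IFN-γ), IL-6 and IL-25: Il12rb1, Il12rb2, Il18r1, Il18rap, Il27ra, Ifngr1, Ifngr2, Il6st, Il6ra and Il17rb. Their RNA was measured in invariant natural killer T (iNKT) cells, T cells that recognise lipid antigens presented by CD1d, in all 15 samples of the study. The cells came from 6 week-old wild-type C57BL/6 mice with no treatment, and were sorted as cells binding the PBS57-loaded CD1d tetramer and an antibody to TCRβ while lacking B220, CD11b, CD11c and CD8. There were 4 samples each from thymus, spleen and mesenteric lymph node (mLN), and 3 from inguinal lymph node (iLN, replicates 2, 3 and 4, as replicate 1 was not analysed here). The labels give replicates 3 and 4 as the first batch (8 samples) and replicates 1 and 2 as the second batch (7 samples, 1 of them from iLN), but do not give the number of mice behind a replicate, so p-values measure the spread between these samples only. Lymph nodes (LNs) were digested with collagenase and the other tissues were dissociated by pressing alone, a step that cannot be told apart from the tissue. Because the samples are bulk populations, fewer cells of a type and less RNA per cell cannot be told apart either.

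Most cytokine receptors of this group are built from 2 different chains. IL-12 is bound by IL-12Rβ1 and IL-12Rβ2, which signal through TYK2, JAK2 and STAT4. IL-18 is bound by IL-18Rα, the product of Il18r1, and signals once the accessory chain IL-18Rβ, the product of Il18rap, joins and recruits MYD88. IFN-γ is bound by IFN-γR1 and signals when IFN-γR2 joins. IL-6 and IL-27 are bound by IL-6Rα and IL-27Rα, which share the signalling chain gp130, the product of Il6st, and IL-25 is bound by IL-17RB. In iNKT cells, IL-12 and IL-18 are best known for eliciting IFN-γ without strong TCR stimulation, and IL-17RB marks cells that respond to IL-25.

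The total expected count per sample, the number of fragments that RSEM assigned to genes, was between 1152702 and 8161474 in thymus (lowest in replicate 2), between 4919511 and 8670570 in spleen, between 4740370 and 7914302 in mLN and between 4080550 and 5360793 in iLN. Levels are given below as CPM, counts scaled to the library size after TMM normalization, which can be compared between samples, and as TPM, which are divided by gene length and can be set side by side between genes. All 10 genes passed the filter on low counts. The sorted cells carried T cell and iNKT markers (Cd3e, Cd3d, Cd247, Trac, Trbc1, Zbtb16 and Cd5), with a summed level between 1812 and 3254 CPM. Of the markers of other cells, the B cell sum was between 77.2 and 269.7 CPM, the myeloid sum between 5.74 and 83.1 CPM, the dendritic sum between 13.1 and 62.0 CPM, the NK cell sum between 0 and 3.70 CPM, the immature thymocyte sum between 2.89 and 64.7 CPM (highest in thymus), the red cell sum between 0.513 and 117 CPM (highest in spleen) and the stromal and endothelial sum between 26.9 and 102 CPM, with Ccl19, Col3a1 and Pdpn at 0 throughout.

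4 receptor genes whose LN samples stood apart from the other tissues lie on separate chromosomes. Coordinates are those of GRCm38 (GENCODE vM21). Il12rb2 (ENSMUSG00000018341) lies at chr6:67291318-67376188 on the minus strand, Il18rap (ENSMUSG00000026068) at chr1:40515362-40551705 on the plus strand, Ifngr2 (ENSMUSG00000022965) at chr16:91547072-91565623 on the plus strand and Il6ra (ENSMUSG00000027947) at chr3:89864059-89913196 on the minus strand. For these genes the 250 bases before the transcription start are shown, because their samples from LNs did not overlap those from spleen and thymus. The sequences are from RefSeq (GRCm38.p6), which held a promoter for 8 of the 10 genes, and are written in the direction of transcription, with the interval of the bases shown. Capitals mark a STAT site, TTCNNNGAA.
Il12rb2, chr6:67376189-67376438, minus strand: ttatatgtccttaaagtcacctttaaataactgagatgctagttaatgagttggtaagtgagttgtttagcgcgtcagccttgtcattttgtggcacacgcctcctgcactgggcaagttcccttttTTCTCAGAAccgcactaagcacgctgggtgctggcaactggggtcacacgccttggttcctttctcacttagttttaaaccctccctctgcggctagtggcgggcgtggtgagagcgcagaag
Il18rap, chr1:40515112-40515361, plus strand: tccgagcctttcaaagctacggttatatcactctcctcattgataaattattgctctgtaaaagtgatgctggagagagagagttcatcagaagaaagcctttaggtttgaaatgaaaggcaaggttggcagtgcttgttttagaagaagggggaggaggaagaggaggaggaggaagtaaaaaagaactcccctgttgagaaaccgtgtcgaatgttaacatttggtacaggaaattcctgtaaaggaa
Ifngr2, chr16:91546809-91547058, plus strand: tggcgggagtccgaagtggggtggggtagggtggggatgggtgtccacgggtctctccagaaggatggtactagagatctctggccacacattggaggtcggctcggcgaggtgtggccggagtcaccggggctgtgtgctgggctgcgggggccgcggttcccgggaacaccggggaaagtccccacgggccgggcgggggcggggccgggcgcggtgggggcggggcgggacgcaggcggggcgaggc
Il6ra, chr3:89913197-89913446, minus strand: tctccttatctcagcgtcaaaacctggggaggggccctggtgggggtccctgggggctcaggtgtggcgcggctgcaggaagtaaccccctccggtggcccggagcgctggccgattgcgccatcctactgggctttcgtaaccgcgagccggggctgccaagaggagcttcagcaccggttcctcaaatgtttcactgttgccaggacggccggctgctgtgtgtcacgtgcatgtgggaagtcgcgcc
The windows were searched on both strands for the STAT site, for the T-box core GGTGTGA and for the TCF/LEF core CTTTGNT, and no match overlapped another. Of the windows shown, that of Il12rb2 held a STAT site, TTCTCAGAA, between 123 and 115 bases before the start, and the other windows held none of these motifs. Among the receptor genes not shown, the third listed start of Il18r1 held TTCCCAGAA and TTCTGGGAA. Of 32851 promoters of the same length, 7.02% held the STAT site, 3.33% the T-box core and 16% the TCF/LEF core. The start of Ifngr2 in RefSeq lies a few bases upstream of that in the annotation used for the counts (window end 91547058, annotated start 91547072).

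To ask where the receptor genes differed with tissue, all 4 tissues were compared, with batch as a factor, using the quasi-likelihood test of edgeR. Genes with a p under 0.01 after Benjamini-Hochberg adjustment and a fold change over 1.5 were called, and the test over 4 tissues used the p alone. Over the 4 tissues 7 of the 10 receptor genes were called (Il12rb2, Il18r1, Il18rap, Ifngr1, Ifngr2, Il6st and Il6ra), against 3.38% of the 13600 genes tested. Il17rb (adjusted p = 0.021), Il12rb1 (0.227) and Il27ra (0.514) were not called. When LNs (the mean of mLN and iLN) were compared with the mean of spleen and thymus, 5 receptor genes were called (1.72% of all genes), of which 3 were higher in LNs (Ifngr2, Il6ra and Il6st; 0.934% of all genes were higher) and 2 were lower (Il12rb2 and Il18rap; 0.787% of all genes were lower). The samples of LNs did not overlap those of spleen and thymus for 2 genes that were higher, Ifngr2 and Il6ra, and 2 that were lower, Il12rb2 and Il18rap. Among all genes tested, 0.294% had no overlap with LNs higher and 0.375% with LNs lower. The median log2 fold change of the 10 genes in this comparison was 0.29 and that of all genes 0.02.

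**Figure D1:**
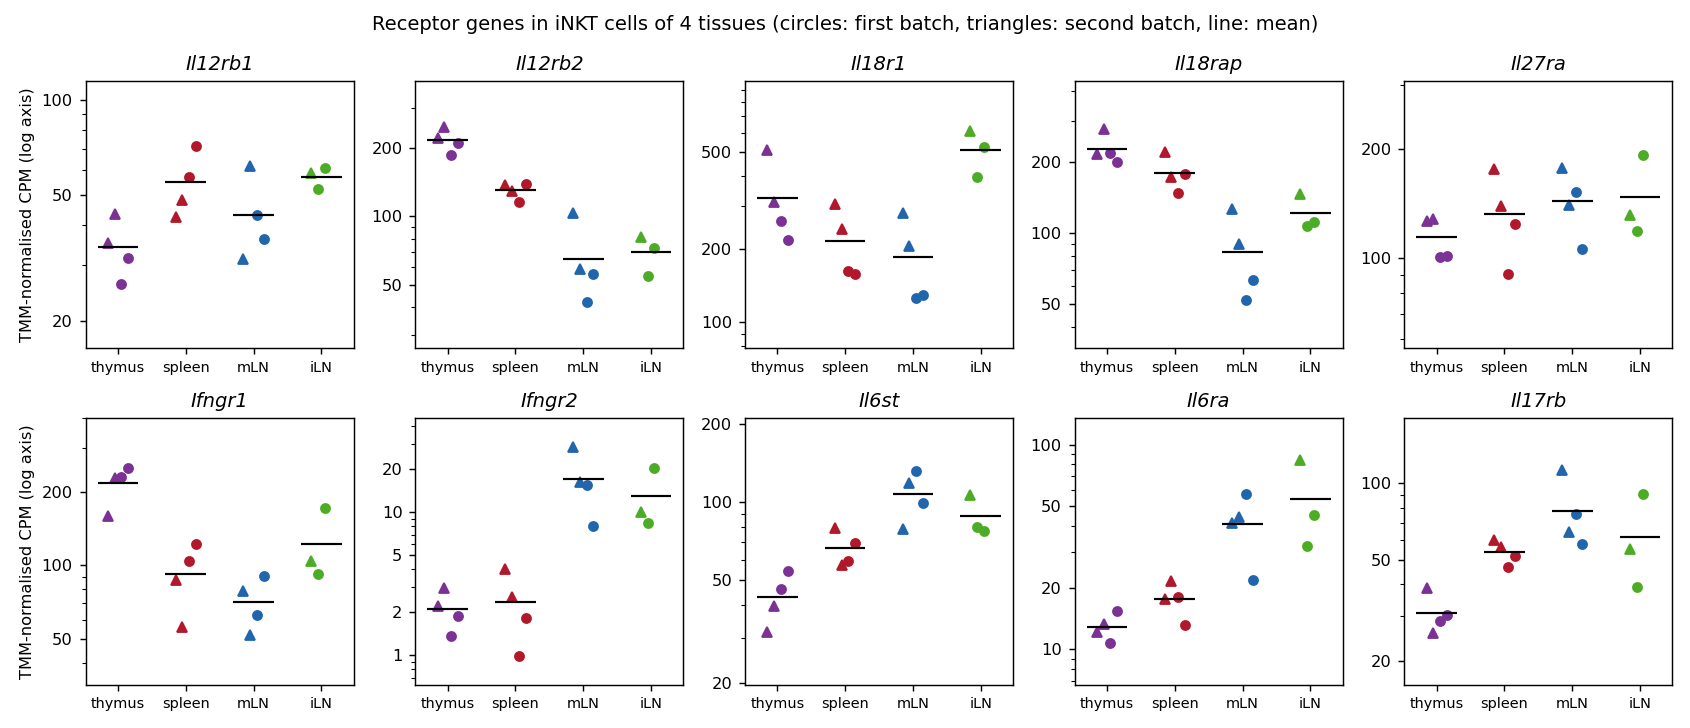
Level of each receptor gene in each sample, in TMM-normalised CPM on a log axis, by tissue, with the first batch as circles, the second batch as triangles and the mean of the tissue as a line. Il12rb2 and Il18rap sit lower in the 7 LN samples than in the 8 samples of spleen and thymus, Ifngr2 and Il6ra sit higher, and Il18r1 is highest in iLN by its mean (509 CPM).

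Of the 2 genes of the IL-12 receptor, Il12rb2 differed with tissue and Il12rb1 was not called. Il12rb2, which encodes the chain that couples the receptor to STAT4, stood at 221, 246, 186 and 211 CPM in thymus replicates 1 to 4 and at 138, 129, 116 and 139 CPM in spleen. In mLN it stood at 104, 58.8, 42.2 and 56.1 CPM, and in iLN replicates 2 to 4 at 81.3, 55.0 and 72.4 CPM. Every LN sample was below every sample of thymus or spleen, and mLN and iLN overlapped. Il12rb2 was lower in LNs than in spleen and thymus by -1.31 on the log2 scale (SE 0.15, adjusted p from edgeR 2.73e-05), with -1.52 in the first batch alone and -1.12 in the second batch alone. Against thymus alone it was lower in mLN (log2 fold change -1.75, adjusted p = 2.03e-05) and in iLN (-1.58, adjusted p = 0.000224). It did not pass the test between iLN and spleen (-0.86, adjusted p = 0.0244). Nor did it pass between thymus and spleen (0.72, adjusted p = 0.053) or between iLN and mLN (0.17, adjusted p = 0.786). Of its exonic bases, 40% (1519 bases) overlap Serbp1 on the opposite strand, and counting by strand is not stated for these libraries, so that reads from the shared bases cannot be told apart. Serbp1, which encodes an RNA-binding protein, had a mean of 711 CPM in thymus, 558 in spleen, 637 in mLN and 734 in iLN, and differed between LNs and the other tissues by 0.11 on the log2 scale (SE 0.12, adjusted p = 0.714).

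Il12rb1 (ENSMUSG00000000791, chr8:70808449-70821424, plus strand), which encodes the chain that the IL-12 and IL-23 receptors share, passed no test. Its level ranged from 26.2 to 43.4 CPM in thymus, from 42.4 to 71.6 in spleen, from 31.4 to 61.7 in mLN and from 52.0 to 60.7 in iLN. The tissues overlapped except that every iLN sample was above every thymus sample (log2 fold change 0.77, SE 0.28, adjusted p = 0.152). The 2 chains can be set against each other within a sample as the log2 ratio of TPM with a pseudocount of 0.5, tested by a two-sided exact permutation test adjusted over 15 tests of 5 ratios. The ratio of Il12rb2 to Il12rb1 was 1.03 ± 0.46 (SD, n = 4) in thymus, -0.63 ± 0.12 (n = 4) in spleen, -0.44 ± 0.99 (n = 4) in mLN and -1.19 ± 0.41 (n = 3) in iLN. Thus Il12rb2 exceeded Il12rb1 in every thymus sample and fell short of it in every sample of spleen and iLN. In mLN replicate 1 it exceeded Il12rb1 (1.01), unlike in the other mLN samples (-1.22 to -0.71). The difference between thymus and spleen, 1.65, had the smallest p that 4 samples against 4 can give in this exact test (0.0286, adjusted 0.0612), and that between LNs and the other tissues, -0.96, did not pass the exact permutation test (adjusted p = 0.11). The length that RSEM used for Il12rb1, which follows from the mix of isoforms it estimated, ranged from 537 to 1634 bases between samples, and with expected counts in place of TPM, an alternative chosen after seeing the data, LNs differed from the other tissues by -1.54 (exact permutation test, adjusted p = 0.0124).

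The genes of the 2 chains of the IL-18 receptor, which are neighbours on chromosome 1 (Il18r1, ENSMUSG00000026070, chr1:40465552-40500854, plus strand, ends 14507 bases before Il18rap starts), differed with tissue in separate ways. Il18rap stood at 218, 276, 218 and 201 CPM in thymus and at 222, 174, 149 and 179 CPM in spleen. It stood at 127, 89.8, 52.2 and 63.2 CPM in mLN and at 146, 107 and 112 CPM in iLN. All LN samples were below all samples of thymus and spleen. The log2 fold change in LNs was -1.0 (SE 0.13, edgeR adjusted p = 0.000125), with -1.23 in the first batch and -0.82 in the second. The difference was called for mLN against spleen (-1.17, adjusted p = 0.00201) and against thymus (-1.50, adjusted p = 3.64e-05), whereas iLN against spleen (-0.51, adjusted p = 0.171) and against thymus (-0.84, adjusted p = 0.0183) did not pass. The call for mLN against spleen was lost without spleen replicate 4 (adjusted p = 0.0102), mLN replicate 3 (0.0119) or mLN replicate 4 (0.0108).

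Il18r1, which encodes the chain that binds IL-18, was instead highest in iLN. It stood at 611, 393 and 522 CPM in iLN replicates 2 to 4, at 282, 205, 125 and 130 CPM in mLN, at 305, 241, 162 and 159 CPM in spleen and at 508, 313, 260 and 217 CPM in thymus. Every iLN sample was above every sample of mLN and spleen, and iLN overlapped with thymus through thymus replicate 1. In each tissue the samples of the second batch (replicates 1 and 2) were the higher ones. Il18r1 was higher in iLN than in mLN by 1.65 on the log2 scale (SE 0.18, edgeR adjusted p = 6.21e-05), the 1 receptor gene called between the LNs, where 0.471% of all genes were called. The same difference was 1.84 within the first batch and 1.31 within the second. Il18r1 was also higher in iLN than in spleen (1.40, SE 0.18, adjusted p = 0.000121) and lower in mLN than in thymus (-0.83, SE 0.17, adjusted p = 0.00749), the last of which was kept in 7 of 15 fits that left out 1 library, with adjusted p up to 0.0527 without thymus replicate 1. Markers of NKT17 cells (Il23r, Ccr6, Il17a, Sdc1, Il1r1 and Blk) were also highest in iLN. Their summed level was 259 to 529 CPM in iLN, 35.4 to 71.7 in mLN, 4.68 to 17.1 in spleen and 10.3 to 21.5 in thymus. Il17a was at 0 in all samples of spleen and mLN, and reached only 0.813 CPM in iLN and 0.551 CPM in thymus. Outside iLN the orders differed, as Il18r1 was lower in mLN than in thymus while the marker sum was higher. Of these 6 markers, 4 were called higher in iLN than in spleen (0.963% of all genes) and 1 higher in iLN than in mLN (0.316% of all genes). Markers of NKT2 cells (Gata3, Il4, Zbtb16, Plac8 and Icos) summed to 1055 to 1369 CPM in iLN against 511 to 795 in the other tissues. Of these 5 genes, Icos was called higher in iLN than in mLN. Most of the iLN sum was Icos, at 787 to 1012 CPM there against 225 to 514 in the other tissues. Plac8 was lower in iLN (1.71 to 9.21 CPM) than in mLN (13.2 to 49.9), and Gata3, Il4 and Zbtb16 overlapped between iLN and mLN. The part of either list in the level of Il18r1 was not tested.

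The ratio of Il18rap to Il18r1 within a sample was -0.36 ± 0.26 (SD, n = 4) in thymus, 0.01 ± 0.26 (n = 4) in spleen, -1.20 ± 0.14 (n = 4) in mLN and -2.09 ± 0.23 (n = 3) in iLN on the log2 scale. The 2 transcripts were thus near parity in thymus and spleen, with a median TPM ratio of 0.837 and 1.01, whereas the accessory chain was at a median of 0.431 of the binding chain in mLN and 0.244 in iLN. All 7 LN samples lay below the 8 others, with a difference of -1.41 and the smallest p the exact permutation test of 7 samples against 8 can give (0.000155, adjusted 0.00117). That test moved labels freely across batches and replicate numbers. Moved only within replicate numbers, they gave -1.4 (adjusted p = 0.023). The ratio was lower in iLN than in mLN in all samples (difference -0.88), again at the smallest p of an exact test of 3 samples against 4 (0.0286, adjusted 0.0612). Within replicate numbers the difference was -0.92, and its p was 0.25, the smallest that the 8 arrangements of that exact permutation test can give. LNs differed from the other tissues by -1.54 within the first batch and -1.25 within the second. The length that RSEM used for Il18rap was longer in LNs by 658 bases within batches (permutation test within batches, chosen after seeing the data, p = 0.00449, adjusted over 10 genes 0.0449), which lowers TPM relative to counts, and with expected counts in place of TPM the difference in the ratio was -1.21 (exact permutation test, adjusted p = 0.00583).

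**Figure D2:**
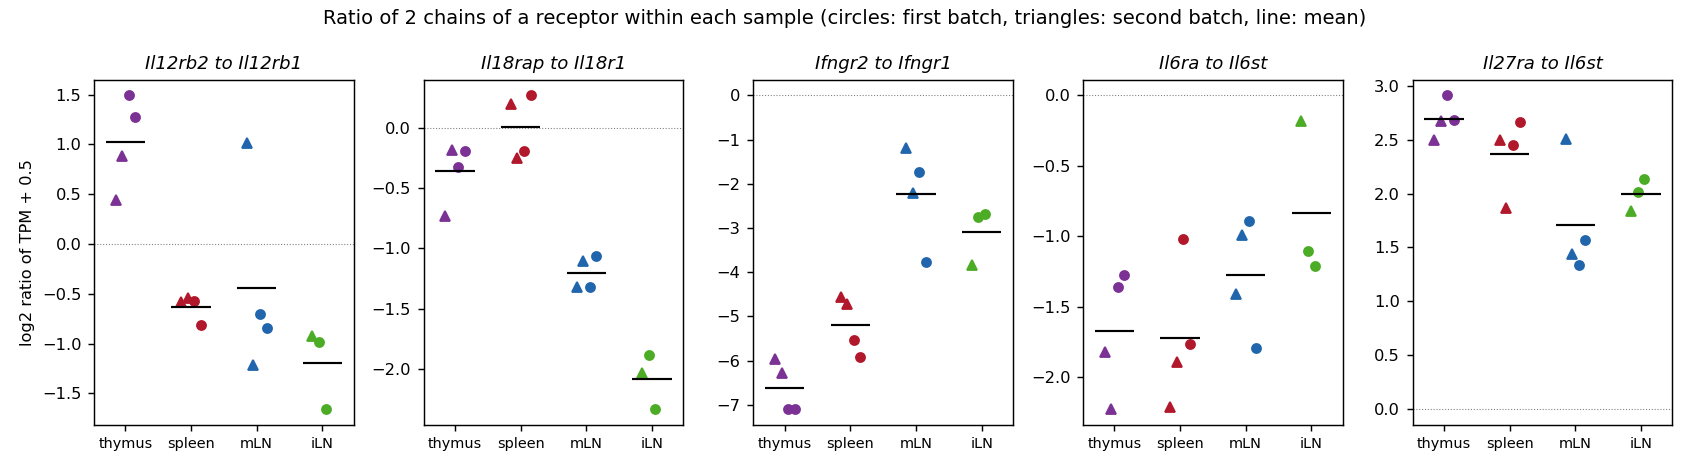
Log2 ratio of the TPM (plus 0.5) of 2 chains of a receptor in each sample, by tissue, with the first batch as circles, the second batch as triangles, the mean as a line and a dotted line at equal levels. The ratio of Il18rap to Il18r1 is lower in every LN sample (-2.33 to -1.06) than in every sample of thymus and spleen (-0.73 to 0.27), and the ratio of Ifngr2 to Ifngr1 is higher.

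The genes of the IFN-γ receptor had separate patterns, with Ifngr2 highest in LNs and Ifngr1 in thymus. Ifngr2, which encodes the chain needed for signalling, stood at 2.22, 2.94, 1.38 and 1.90 CPM in thymus and at 4.05, 2.56, 0.997 and 1.83 CPM in spleen. In mLN it stood at 28.7, 16.4, 15.6 and 8.09 CPM and in iLN at 10.05, 8.40 and 20.5 CPM. Every LN sample was above every sample of thymus and spleen. These levels rested on expected counts of 4 to 18 in thymus, 4 to 41 in spleen, 42 to 221 in mLN and 31 to 120 in iLN, so that the low group was close to the limit of detection. Ifngr2 was higher in LNs by 2.85 on the log2 scale (SE 0.39, adjusted p from edgeR 0.000194), with 3.06 in the first batch and 2.37 in the second. It was higher in mLN than in spleen (2.85, adjusted p = 0.00694) and thymus (3.0, adjusted p = 0.00294) and in iLN than in spleen (2.70, adjusted p = 0.00946) and thymus (2.85, adjusted p = 0.00749), with no called difference between mLN and iLN (-0.15, adjusted p = 0.934). The differences for single LNs were near the threshold. Of 15 fits that left out 1 library, that of mLN against thymus was kept in 9 (adjusted p up to 0.0178) and that of iLN against thymus in 5, with adjusted p up to 0.0538 without iLN replicate 4, where the log2 fold change was 2.16.

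Ifngr1 (ENSMUSG00000020009, chr10:19591949-19610229, plus strand), which encodes the chain that binds IFN-γ, was highest in thymus, at 159, 228, 229 and 250 CPM. It stood at 87.2, 56.2, 104 and 122 CPM in spleen, at 78.6, 52.1, 62.8 and 90.7 CPM in mLN and at 104, 91.8 and 172 CPM in iLN. Every thymus sample was above every sample of spleen and mLN, while iLN replicate 4 was above thymus replicate 1. Ifngr1 was the 1 receptor gene called between thymus and spleen, where 1.32% of all genes were called. It was higher in thymus by 1.25 on the log2 scale (SE 0.22, edgeR adjusted p = 0.00236), with 1.08 within the first batch and 1.41 within the second. That call was lost without thymus replicate 2 (adjusted p = 0.0144), thymus replicate 4 (0.0105) or spleen replicate 2 (0.0143). Ifngr1 was also lower in mLN than in thymus (-1.60, SE 0.22, adjusted p = 2e-04), and did not pass the tests of iLN against thymus (-0.88, adjusted p = 0.0495) or of LNs against spleen and thymus (-0.61, adjusted p = 0.0356). The myeloid marker sum was 51.2 to 83.1 CPM in thymus, 15.25 to 56.8 in spleen, 11.9 to 22.7 in mLN and 5.74 to 13.7 in iLN. Most of the thymus sum was Fcer1g, at 46.6 to 77.9 CPM there against 1.36 to 7.23 in the other tissues. No other gene of the list exceeded 5.69 CPM in thymus. Lyz2 stood at 0 to 0.735 CPM in thymus against 2.64 to 43.1 in spleen. Of the 7 genes, Fcer1g was called higher and Lyz2 lower in thymus than in spleen. The part of the myeloid sum in the level of Ifngr1 was not tested.

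Within a sample, Ifngr2 reached a median of 0.01 of the TPM of Ifngr1 in thymus, 0.0298 in spleen, 0.259 in mLN and 0.147 in iLN. On the log2 scale the ratio was -6.61 ± 0.58 (SD, n = 4) in thymus, -5.19 ± 0.65 (n = 4) in spleen, -2.22 ± 1.11 (n = 4) in mLN and -3.09 ± 0.65 (n = 3) in iLN. Ifngr1 exceeded Ifngr2 in every sample of every tissue. LNs differed from the other tissues by 3.31 (exact permutation test, p = 0.000155, adjusted 0.00117), the smallest p this design allows, with no overlap of the samples. It was 3.69 within the first batch and 2.97 within the second. The ratio was lower in thymus than in spleen in all samples, by -1.43, at the smallest p of an exact test of 4 against 4 (0.0286, adjusted 0.0612), but the samples overlapped with a pseudocount of 0.1 (exact permutation test, p = 0.0571) and with expected counts in place of TPM (p = 0.114). The length RSEM used for Ifngr2 ranged from 960 to 2998 bases, and with expected counts in place of TPM the LNs differed from the others by 3.33 (exact permutation test, adjusted p = 0.00466).

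Of the chains around gp130, both Il6st and Il6ra were higher in LNs. Il6ra, which encodes the chain that binds IL-6, stood at 12.1, 13.2, 10.7 and 15.4 CPM in thymus and at 17.7, 21.5, 17.9 and 13.2 CPM in spleen. It stood at 41.2, 44.3, 57.4 and 21.8 CPM in mLN and at 84.5, 32.0 and 45.5 CPM in iLN. The LN samples did not overlap the others, with mLN replicate 4 at 21.8 CPM next to spleen replicate 2 at 21.5 CPM. The log2 fold change in LNs was 1.65 (SE 0.24, edgeR adjusted p = 0.000285), with 1.44 in the first batch and 1.93 in the second. Il6ra was called in iLN against spleen (1.64, adjusted p = 0.00902) and thymus (2.06, adjusted p = 0.00169) and in mLN against thymus (1.66, adjusted p = 0.00607), but not in mLN against spleen (1.24, adjusted p = 0.0651). Without iLN replicate 2 the difference between iLN and spleen was 1.21 (adjusted p = 0.117) and that between iLN and thymus 1.65 (adjusted p = 0.0289). The call between mLN and thymus was kept in 9 of 15 fits that left out 1 library (adjusted p up to 0.0454). Of its exonic bases, 2.8% overlap Gm42809 on the opposite strand.

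Il6st (ENSMUSG00000021756, chr13:112464070-112510086, plus strand) stood at 31.6, 39.7, 46 and 54.3 CPM in thymus, at 79.1, 57.1, 59.3 and 69.6 CPM in spleen, at 78.4, 119, 132 and 99.0 CPM in mLN and at 107, 80.2 and 77.0 CPM in iLN. Every LN sample was above every thymus sample, and the LN samples overlapped those of spleen through spleen replicate 1. Il6st was higher in LNs than in spleen and thymus (log2 fold change 0.86, SE 0.16, edgeR adjusted p = 0.00287; 0.73 in the first batch and 1.06 in the second), a call that was lost without iLN replicate 2 (0.73, adjusted p = 0.0166). The difference was called in mLN against thymus (1.32, SE 0.22, adjusted p = 0.00128) and did not pass in mLN against spleen (0.68, adjusted p = 0.143) or iLN against thymus (1.04, adjusted p = 0.016).

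Il27ra (ENSMUSG00000005465, chr8:84030294-84042589, minus strand), the partner of gp130 in the IL-27 receptor, was among the most even of the 10 genes. It ranged from 101 to 129 CPM in thymus, from 90.4 to 176 in spleen, from 106 to 177 in mLN and from 119 to 193 in iLN, and no comparison was called (adjusted p between 0.304 and 0.875). The ratio of Il27ra to Il6st was lower in LNs, at 1.71 ± 0.54 (SD, n = 4) in mLN and 2.0 ± 0.15 (n = 3) in iLN against 2.37 ± 0.35 (n = 4) in spleen and 2.69 ± 0.17 (n = 4) in thymus on the log2 scale. The difference was -0.69 (exact permutation test, adjusted p = 0.0218), with overlap through mLN replicate 1 and spleen replicate 2, and with expected counts in place of TPM it was -0.64 (exact permutation test, adjusted p = 0.0612). The ratio of Il6ra to Il6st was -1.27 ± 0.42 (n = 4) in mLN, -0.83 ± 0.56 (n = 3) in iLN, -1.72 ± 0.51 (n = 4) in spleen and -1.67 ± 0.44 (n = 4) in thymus. Its difference of 0.61 between LNs and the other tissues did not pass the exact permutation test (adjusted p = 0.0612). In every sample Il6st thus had a higher TPM than Il6ra and a lower TPM than Il27ra.

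Il17rb (ENSMUSG00000015966, chr14:29996135-30008896, minus strand), which encodes the IL-25-binding chain, was lowest in thymus, at 38.5, 25.7, 28.7 and 30.2 CPM, and stood at 59.7, 55.9, 46.8 and 51.5 CPM in spleen. In mLN it stood at 113, 64.4, 75.7 and 57.8 CPM and in iLN at 55.1, 39.0 and 90.7 CPM. All thymus samples were below all others, while spleen and the LNs overlapped. Its difference was called between mLN and thymus (log2 fold change 1.31, SE 0.27, edgeR adjusted p = 0.007) and was 0.78 between LNs and the other tissues (adjusted p = 0.0243) and -0.78 between thymus and spleen (adjusted p = 0.18). The call was kept in 6 of 15 fits that left out 1 library, with adjusted p up to 0.0359 without thymus replicate 2. Of its exonic bases, 3.8% overlap Actr8 on the opposite strand.

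**Figure D3:**
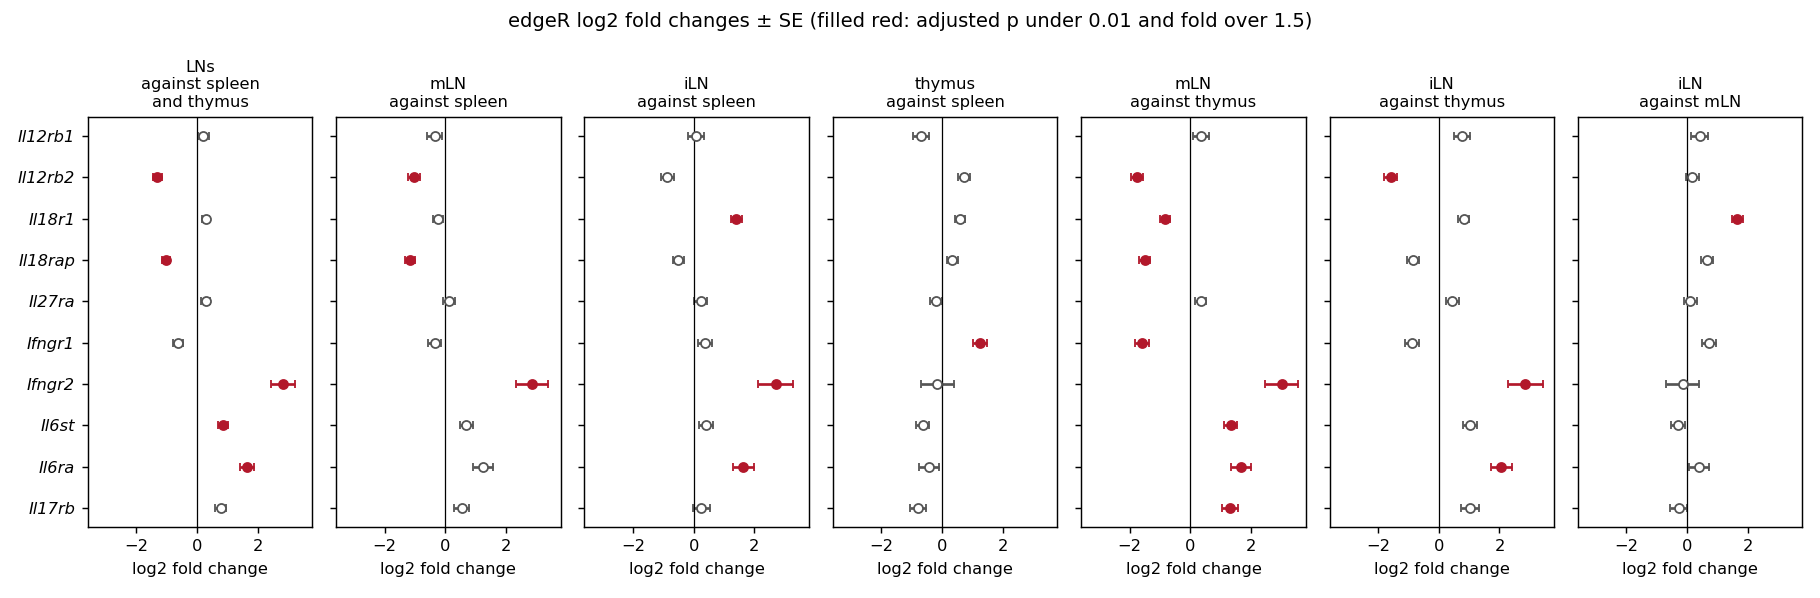
Log2 fold change (x axis) of each receptor gene in 7 comparisons of tissues, with the SE from edgeR as bars, and filled red where the adjusted p was under 0.01 and the fold change over 1.5. The comparison of mLN with thymus holds the most called genes (8 of 10), and that of iLN with mLN holds 1, Il18r1.

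By pairs of tissues, 8 of the 10 receptor genes were called between mLN and thymus, where 1.6% of all genes were called. They were Il12rb2, Il18r1, Il18rap and Ifngr1, lower in mLN as were 0.779% of all genes, and Ifngr2, Il6st, Il6ra and Il17rb, higher in mLN as were 0.816%. Between iLN and thymus 3 were called (Il12rb2, Ifngr2 and Il6ra; 1.5% of all genes), between iLN and spleen 3 (Il18r1, Ifngr2 and Il6ra; 1.55% of all genes) and between mLN and spleen 3 (Il12rb2, Il18rap and Ifngr2; 0.654% of all genes). These comparisons share samples. Of the calls against spleen, that of Il12rb2 in mLN was kept in 4 of 15 fits that left out 1 library (log2 fold change -1.29 to -0.90, adjusted p 0.000497 to 0.044), that of Ifngr2 in mLN in 4 of 15 (adjusted p up to 0.0355), that of Ifngr2 in iLN in 1 of 15 (up to 0.0569), that of Il6ra in iLN in 4 of 15 (up to 0.117), those of Il18rap in mLN and Ifngr1 in thymus in 12 of 15 each and that of Il18r1 in iLN in 15 of 15. Of the 11 calls against thymus, 5 were kept in 15 of 15 and the others in 5 to 12. The differences of Il12rb2, Il18rap, Ifngr2 and Il6ra between LNs and the other tissues, and that of Il18r1 between iLN and mLN, were called in 15 of 15. With no batch covariate these 4 genes were still called in LNs, while the calls between iLN and mLN or spleen (Il18r1 1.45 with adjusted p = 0.0307 and 1.23 with 0.0394), between mLN and spleen and between thymus and spleen were not.

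The order of the receptor transcripts, by median TPM, also differed between tissues. In thymus Ifngr1 (152 TPM), Il18r1 (126), Il12rb2 (98.3) and Il18rap (91.5) stood first. In spleen Il12rb1 (109), Il27ra (88.5), Il18r1 (81.1) and Il18rap (79.9) did. In mLN the order opened with Il27ra (85.5), Il18r1 (68.4), Ifngr1 (59.3) and Il17rb (45.7), and in iLN with Il18r1 (233), Il27ra (95.4), Il12rb1 (81.8) and Ifngr1 (76.8). Ifngr2 was last in thymus (1.17 TPM), spleen (1.10) and iLN (8.25), and Il6ra in mLN (11). The ranges of neighbours in these orders overlapped over the samples of a tissue, except that Il17rb, Il6st, Il6ra and Ifngr2 followed each other without overlap in thymus, as did Il6st, Il6ra and Ifngr2 in spleen, and that Ifngr1 stood above Il18rap in iLN. Within samples, 18 of the 36 pairs of neighbours kept 1 order in every sample of the tissue, such as Il17rb above Il6st in 4 of 4 spleen samples and Il18r1 above Il27ra in 3 of 3 iLN samples. Between 16.1% and 32.3% of the counts of a sample fell on genes rich in rRNA sequence, which lowers the TPM of all other genes alike within a sample. The order also rests on the length that RSEM used, which for Il12rb1 was 537 to 865 bases in spleen and 939 to 1634 in mLN. In CPM, which leave out length, the mean of Il12rb1 was 54.7 in spleen and 43.1 in mLN (edgeR adjusted p = 0.646).

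Marker genes of iNKT subsets also differed between LNs and the other tissues, and their part in the differences of the receptor genes was not tested. The NKT1 markers Tbx21, Il2rb, Klrb1c, Xcl1, Nkg7 and Klrd1 summed to 1948 to 2875 CPM in thymus and 1436 to 2684 in spleen, against 1021 to 1450 in mLN and 1026 to 1631 in iLN, with none at 0, and 6 of the 6 were called lower in LNs, against 0.787% of all genes. This is the direction of Il12rb2 and Il18rap. Markers of naive or recirculating T cells (Ccr7, Lef1, Klf2, S1pr1 and Tcf7) summed to 619 to 809 CPM in mLN and 538 to 801 in iLN, against 294 to 366 in spleen and 233 to 338 in thymus, and 3 of the 5 were called higher in LNs, against 0.934% of all genes. Also called higher in LNs were 4 of the 6 NKT17 markers (Il23r, Il1r1, Ccr6 and Sdc1) and 2 of the 5 NKT2 markers (Zbtb16 and Icos). The stromal and endothelial sum moved the same way, at 67.9 to 102 CPM in mLN and 65.9 to 76.1 in iLN against 26.9 to 56.8 in thymus and 34.3 to 57.1 in spleen without overlap, although 5 of its 6 genes were at 0 in all LN samples, leaving Pecam1, and none was called. This is the direction of Ifngr2, Il6ra and Il6st. Of the NKT17 markers, only Il1r1 and Sdc1 were called higher in mLN than in spleen, and only Sdc1 higher than in thymus. In iLN, Il23r, Il1r1, Ccr6 and Sdc1 were called higher than in both. Ifngr2 and Il6st were not called between iLN and mLN (log2 fold change -0.15 and -0.29). Across the 15 samples, with the batch means removed from log2 CPM, the genes most like each receptor gene were compared by Pearson's r and Spearman's rho, as a description in which the points share tissue and library. The nearest to Il12rb2 were Klrc2 (r = 0.98, rho = 0.98), which encodes the activating NK receptor NKG2C, Dennd4a (r = 0.96, rho = 0.91) and Klrc3 (r = 0.95, rho = 0.95). Klrc3 lay near the limit of detection, with a median of 0.498 CPM over the 15 samples. The nearest to Il18rap were Klrc1 (r = 0.94, rho = 0.89), which encodes the inhibitory NK receptor NKG2A, Klrc2 (r = 0.94, rho = 0.93) and Il12rb2 itself (r = 0.93, rho = 0.94). For Ifngr2 they were Chdh (r = 0.95, rho = 0.91), Tcf7 (r = 0.94, rho = 0.85), a transcription factor of naive and memory T cells, and Clint1 (r = 0.93, rho = 0.79). For Ifngr1 they were Sike1 (r = 0.94, rho = 0.92), Sgk1 (r = 0.92, rho = 0.92) and Atp8b4 (r = 0.91, rho = 0.88), and for Il18r1 F2r (r = 0.91, rho = 0.90), Map4 (r = 0.91, rho = 0.86) and Runx2 (r = 0.90, rho = 0.94). For Il6st they were Sft2d2 (r = 0.92, rho = 0.90), Gsk3b (r = 0.91, rho = 0.91) and Erbin (r = 0.89, rho = 0.91), and for Il6ra Gm26809 (r = 0.90, rho = 0.89), Gm20186 (r = 0.90, rho = 0.86) and Igf1r (r = 0.88, rho = 0.82), which encodes the IGF-1 receptor.

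The receptor genes were then set beside other genes of the pathways. Of 21 related receptors, 15 passed the filter, 3 of them higher in LNs than in spleen and thymus (Il1r1, Il23r and Il17re, against 0.934% of all genes) and 1 lower (Il2rb, against 0.787%). Il1r1, which encodes the IL-1 receptor and belongs to the same family as Il18r1, ranged from 65.3 to 161 CPM in iLN, from 10.2 to 28.8 in mLN, from 2.44 to 5.26 in spleen and from 4.36 to 16.9 in thymus (log2 fold change in LNs 3.15, SE 0.35, edgeR adjusted p = 2.79e-05). Il23r, whose product pairs with IL-12Rβ1 to bind IL-23, ranged from 74.1 to 120 CPM in iLN, from 0.908 to 17.7 in mLN, from 0.203 to 4.66 in spleen and from 0.276 to 6.54 in thymus (3.87, SE 0.65, adjusted p = 0.00117). In both, iLN stood above the other tissues without overlap. Il17re, which encodes a receptor chain for IL-17C, was higher in LNs by 2.99 (SE 0.61, adjusted p = 0.00645). It ranged from 11.5 to 48.9 CPM in iLN and from 0.648 to 8.67 in mLN. The mLN samples overlapped those of spleen (0 to 2.24) and thymus (1.11 to 2.47). Between single tissues it was called only in iLN against spleen. Il2rb, which encodes the β chain shared by the IL-2 and IL-15 receptors, was lower in LNs (-0.63, SE 0.13, adjusted p = 0.00734). Il17ra, whose product pairs with IL-17RB, was higher in iLN than in thymus (1.02, SE 0.21, adjusted p = 0.00887). The median log2 fold change of the tested related receptors in LNs was 0.07. Il1r1 and Il23r are also in the NKT17 marker list, and Il2rb in the NKT1 list.

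Of 10 ligands and binding proteins, 2 passed the filter, Ifng and Il18bp, and neither was called in any comparison. Ifng ranged from 6.07 to 11.8 CPM in thymus, from 13 to 21.3 in spleen, from 8.41 to 34.2 in mLN and from 2.44 to 4.13 in iLN. Every iLN sample was below every other sample, with a log2 fold change against spleen of -2.17 (SE 0.53, edgeR adjusted p = 0.0222). Il12a, Il18 and Il6 were at 0 CPM in every sample.

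All 17 signalling genes passed the filter, with a median log2 fold change in LNs of -0.05, and 1 was higher in LNs (against 0.934% of all genes), Irak3. Irak3, which encodes an inhibitor of signalling by the IL-1 and IL-18 receptor family, ranged from 0 to 1.10 CPM in thymus, from 7.80 to 11 in spleen, from 8.56 to 19.7 in mLN and from 19.6 to 29.3 in iLN, and all thymus samples were below all others. It was lower in thymus than in spleen (log2 fold change -4.55, SE 0.69, edgeR adjusted p = 0.000482) and higher in LNs (3.37, SE 0.43, adjusted p = 9.66e-05), with both fold changes resting on the few counts in thymus. Jak2, whose kinase serves the IL-12 and IFN-γ receptors, was lower in thymus than in spleen (-1.03, SE 0.20, adjusted p = 0.00486). Traf3ip2, which encodes the adaptor of IL-17 family receptors, was higher in iLN than in thymus (1.24, SE 0.25, adjusted p = 0.00824). Stat4, through which IL-12 signals, ranged from 63.7 to 95.6 CPM in thymus, from 120 to 147 in spleen, from 77.6 to 151 in mLN and from 69.6 to 78.2 in iLN, and was not called in LNs (-0.07, adjusted p = 0.859) or against spleen in thymus (-0.76, adjusted p = 0.0345) or iLN (-0.78, adjusted p = 0.0381).

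Of 16 target genes of these cytokines, 13 passed the filter, with a median log2 fold change in LNs of -0.16, and 1 was called in LNs (1.72% of all genes). This was Tbx21, which encodes the transcription factor T-bet and was lower in LNs (-1.04, SE 0.21, edgeR adjusted p = 0.00725), a call kept in 4 of 15 fits that left out 1 library (adjusted p up to 0.0211). Tbx21 ranged from 30.4 to 98.7 CPM in thymus, from 26.8 to 112 in spleen, from 16.7 to 71.1 in mLN and from 17.9 to 47.1 in iLN, so that the tissues overlapped. Gbp4, an interferon-induced GTPase gene, was lower in mLN than in spleen (-0.75, SE 0.15, adjusted p = 0.0097). Furin, a protease gene induced by IL-12, was lower in thymus than in spleen (-1.40, SE 0.25, adjusted p = 0.00223) and higher in iLN than in thymus (1.30, SE 0.26, adjusted p = 0.00706). In the fits that left out 1 library, the calls of Il1r1 and Il23r in LNs and in iLN against spleen and those of Irak3 were kept in 15 of 15. Those of Il17re and Il2rb in LNs were kept in 5, of Jak2 in 9, of Furin in 12 and 6, of Il17ra and Traf3ip2 in 3 each and of Gbp4 in 2.

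**Figure D4:**
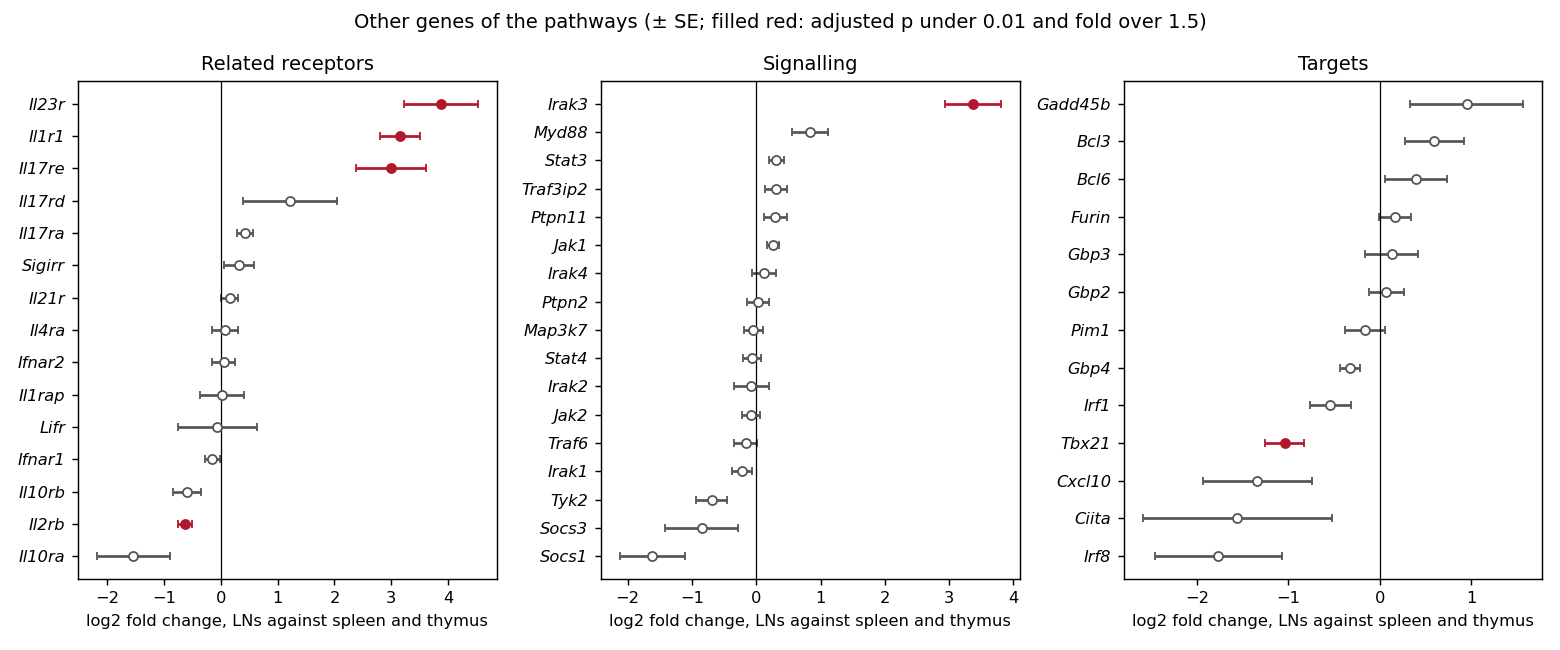
Log2 fold change of LNs against spleen and thymus (x axis) for the related receptors, signalling genes and target genes that passed the filter, with the SE from edgeR as bars and called genes in red. Il23r, Il1r1, Il17re and Irak3 are higher in LNs (2.99 to 3.87 on the log2 scale), and Il2rb and Tbx21 are lower.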

How the data were processed

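RNA was sequenced from 15 samples of sorted iNKT cells. Per the labels' processing notes and the study's methods, libraries were made with an amplification kit for small inputs and sequenced as 101 bp paired-end reads, and the authors trimmed reads with Cutadapt 1.7.1 and quantified them with RSEM 1.2.31 and Bowtie2 2.2.9 against GRCm38.p6. The authors deposited, for each gene, an expected count, in which fragments that align to several genes are shared between them, and a TPM, the expected count divided by the effective length of the gene and scaled to the same total per sample. The effective lengths they deposited were used to check TPM. The deposited FPKM values were not used.

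Expected counts were rounded. After filterByExpr of edgeR 4.0.16 (limma 3.58.1, R 4.3.3), 13600 genes were normalised by TMM and fitted in 1 quasi-likelihood model with robust estimation and with tissue and batch as factors, and p-values were adjusted by Benjamini-Hochberg over all genes. Calls needed an adjusted p under 0.01 and, except in the test over 4 tissues, a fold change over 1.5. Ratios of 2 chains were tested by exact permutation, two-sided (called at an adjusted p under 0.05). Labels moved across all samples compared, with no account of batch. On simulated data with these depths, 73.6% of 91 genes with a true log2 change of 2 were called between LNs and the other tissues (13327 genes fitted). So were 24.1% of 108 genes with a change of 1, and 1 of 13128 unchanged genes. The simulated counts held no batch effect and no pairing of samples, so these rates may not hold for the real data.

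All 10 receptor genes are named. Of the lists of related receptors, ligands, signalling genes and targets, every gene called in a comparison is named, with Ifng, Stat4, Tbx21 and Il23r in any case, and for each receptor gene called over the 4 tissues the 3 genes with the highest Pearson r. The receptor genes and lists were chosen with earlier results of these data known. The alternatives were DESeq2 1.42.0, RLE normalization, other filters, no batch factor, the replicate number as a block, only the groups compared, each batch alone, an adjusted p of 0.05, TPM rescaled without genes rich in rRNA sequence, a pseudocount of 0.1, and leaving out each library. Ratios and figures were made in Python 3.11.15 (scipy 1.17.1, numpy 2.4.6, matplotlib 3.10.9, pandas 2.3.3). A few genes of the marker and signalling lists are not reported here and were left out of sums and counts.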

Additional observations from a re-analysis of the deposited data

Results flagged for a closer look

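In spleen, the log2 ratio of Il12rb2 to Il12rb1 (TPM with a pseudocount of 0.5) was -0.81 in replicate 4, while the other 3 spleen samples lay between -0.58 and -0.54. This sample stood apart by Dixon's test, with a gap of 0.871 of the range, above the 95% critical value for 4 samples. It was the 1 value flagged in 45 groups of 4 samples, where chance flags about 1 in 20. Every spleen sample was below every thymus sample. The flagged value lay furthest from thymus, so its inclusion does not test that gap.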

How the results depend on the processing

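Correlations between samples did not settle whether the replicate numbers pair them. For clonotype frequencies of the sequenced samples, the paper used a paired t-test. Deviations from the tissue means correlated between same-numbered samples with r over 0.1 in 11 of 21 pairs (mean 0.108) and with a mean of 0.0921 between other numbers of the same batch, although 14 of 15 libraries correlated best with their own number. With the replicate block in place of batch, the receptor genes called in iLN against spleen fell from 3 to 1, and the other counts stayed within 1.5 times. The calls lost were Ifngr2 (adjusted p = 0.0132) and Il6ra (0.0206) in iLN against spleen, Ifngr2 in iLN against thymus (0.011) and Il6ra in mLN against thymus (0.0119), and Il18r1 was gained in iLN against thymus (0.00143).

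Counts of called receptor genes depended on batch and sample number. With no batch covariate they were 0 for mLN against spleen (3 in the report), 0 for iLN against spleen, 0 for thymus against spleen, 5 for mLN against thymus (8 in the report) and 0 for iLN against mLN (1 in the report). At an unadjusted p under 0.05 in edgeR, 5, 5, 5 and 3 receptor genes passed in the comparisons with 0. With the first batch only they were 0 for mLN against spleen (6 at an unadjusted p under 0.05), 1 for iLN against spleen, 0 for thymus against spleen (4), 2 for mLN against thymus, 1 for iLN against thymus, 2 for LNs against spleen and thymus and 3 over the 4 tissues, and with the second batch only (7 samples) they were 0 in every comparison, with 1 (iLN against mLN) to 8 (mLN against thymus, and over the 4 tissues) receptor genes at an unadjusted p under 0.05. With only the groups compared they were 0 for mLN against spleen (6 at an unadjusted p under 0.05), 1 for iLN against spleen, 2 for thymus against spleen and 5 for mLN against thymus. For iLN against thymus the count rose from 3 to 7 with no filter on low counts, to 6 with DESeq2 and to 7 at an adjusted p under 0.05 (3.38% of all genes). Leaving out 1 library at a time gave 0 to 3 (mLN against spleen), 1 to 3 (iLN against spleen), 0 to 2 (thymus against spleen), 4 to 8 (mLN against thymus), 1 to 5 (iLN against thymus), 1 to 1 (iLN against mLN), 4 to 6 (LNs against spleen and thymus) and 6 to 8 (over the 4 tissues). Of the fold changes of single receptor genes under the alternatives other than leaving out a library, 187 stayed on the same side of the threshold, 66 no longer passed and 14 passed only there, and no called one changed sign.

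For the ratios between LNs and the other tissues, each batch alone was too small to pass after adjustment. Within the first and second batch the differences were -1.54 and -1.25 (both adjusted p = 0.143) for Il18rap to Il18r1, 3.69 and 2.97 (both 0.143) for Ifngr2 to Ifngr1 and -0.91 (0.143) and -0.45 (0.556) for Il27ra to Il6st. With expected counts and no length they were -1.54 (0.0124) for Il12rb2 to Il12rb1 and -0.64 (0.0612) for Il27ra to Il6st. Directions turned for uncalled ratios only, namely Ifngr2 to Ifngr1 in iLN against mLN (0.026 in the first batch), Il27ra to Il6st in iLN against mLN (-0.13 in the second batch) and Il6ra to Il6st in thymus against spleen (-0.11 to 0.29 when 1 library was left out). The cause was not tested. Leaving out 1 library gave -1.26 to -0.77 for Il12rb2 to Il12rb1, -0.81 to -0.61 for Il27ra to Il6st and 0.46 to 0.73 for Il6ra to Il6st between LNs and the other tissues. The strict filter of at least 10 counts in every sample removed Ifngr2.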
